A study of Homo sapiens with 6 samples.

Results

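The RNA interference machinery was examined as 10 genes in HT29 cells, a human colorectal adenocarcinoma line of epithelial morphology. The genes were taken by symbol, as a set proposed with earlier results of these data known: the Argonautes AGO1, AGO2, AGO3 and AGO4, the GW182 scaffolds TNRC6A and TNRC6B, and DROSHA, XPO5, DICER1 and TARBP2. They are 10 of the 28278 genes listed for each library, and all 10 were among the 15307 genes that passed the filter on low counts. HT29 cells received an siRNA against ALDOA, the glycolytic enzyme aldolase A (siALDOA), or a scrambled siRNA (siControl), and RNA was taken after 48 h from 3 biological replicates of each group. Both groups therefore carried a transfected siRNA, no cells without siRNA were analysed here, and a single cell line was used. The siRNAs were delivered by lipid transfection, and the sequence of the siRNA against ALDOA is not given in the sources used here.

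RNA interference silences transcripts through short RNAs held by an Argonaute protein. For miRNAs, the nuclear enzyme DROSHA cuts a hairpin out of a long primary transcript, XPO5 carries the hairpin to the cytoplasm, and DICER1 with its partner TARBP2 trims it to a short duplex. A strand of the duplex is loaded on an Argonaute, and the GW182 proteins link the Argonaute to the enzymes that shorten the poly(A) tail and remove the cap of the target. A transfected siRNA duplex enters this pathway at the Argonaute step without DROSHA, and AGO2 is the Argonaute known for cutting perfectly matched targets. The question asked of these libraries was whether transcripts of this machinery differed between cells carrying siRNA against ALDOA and cells carrying the scrambled siRNA.

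The hairpin of miR-17 and 3 mature miRNAs are shown to make these steps concrete, since their host transcripts were counted in these libraries. Sequences are from RefSeq (GRCh38.p14). In the hairpin (chr13:91350605-91350688, plus strand) capitals mark both arms that become mature strands, so the lower-case ends are what DROSHA removes and the lower-case loop is what DICER1 removes. The mature strands come from chr13:91350618-91350640 (miR-17-5p, plus strand), chr9:21512158-21512178 (miR-31-5p, minus strand) and chr17:1713914-1713935 (miR-22-3p, minus strand), each within its host transcript. In the mature miRNAs capitals mark the seed, bases 2 to 8, which an Argonaute presents for pairing.
miR-17 hairpin: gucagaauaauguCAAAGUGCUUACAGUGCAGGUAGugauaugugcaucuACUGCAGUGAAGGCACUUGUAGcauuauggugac
miR-17-5p: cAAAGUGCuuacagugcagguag
miR-31-5p: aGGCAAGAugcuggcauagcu
miR-22-3p: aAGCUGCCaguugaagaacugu
The 3 seeds differ from each other. The mature miRNAs themselves were not measured, as the libraries report counts per gene.

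The libraries held 27277538 to 33237914 counts on genes. The target of the siRNA was lower in each siALDOA library: ALDOA (ENSG00000149925, hg38 chromosome 16, 30064164 to 30070457) was counted 7870, 9160 and 7948 times in the siALDOA libraries against 18453, 19438 and 22000 times in the siControl libraries. Its log2 fold change was -1.13 (standard error 0.060, edgeR quasi-likelihood test, Benjamini-Hochberg adjusted p = 6.95e-11). Of 8 colon epithelial markers, 7 were detected and tested with a summed level of 8374 to 8608 CPM (counts relative to the TMM-scaled library total) with siALDOA and 9183 to 9648 CPM with siControl, and LGALS4 was listed at 0 in every library. As the annotation used for counting is not given, a gene listed at 0 here and below may not have been assigned reads and is not read as absent. KRT18, a keratin of simple epithelia, was the marker called lower (log2 fold change -0.28, adjusted p = 0.0152), while limma-voom called 2 markers lower and library totals only called 0. Of 9 markers of blood, fibroblast and endothelial cells, 2 passed the filter, CD3E was listed at 0 throughout, and the summed level was 19.1 to 20.7 CPM with siALDOA and 14.8 to 16.4 CPM with siControl. CD14, a monocyte marker, was called higher among them (log2 fold change 0.32, adjusted p = 0.0485), and limma-voom called none of them. A list of 10 interferon-response genes moved with the groups: all 10 were called higher with siALDOA, and their summed level was 2819 to 3469 CPM with siALDOA and 1192 to 1380 CPM with siControl. The part of these accompanying differences in the results below was not tested.

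Levels of different genes were compared per kilobase of merged exons. In the siControl libraries AGO2 was the most abundant member at 36.6 ± 0.750 CPM per kb (SD, n = 3), followed by XPO5 at 10.4 ± 0.624 CPM per kb. TNRC6A at 6.68 and DROSHA at 6.46 CPM per kb had overlapping ranges, as had AGO4 at 4.74 and TARBP2 at 4.56 CPM per kb, and DICER1 at 3.75 and AGO1 at 3.66 CPM per kb. TNRC6B at 2.51 and AGO3 at 1.69 CPM per kb were the least abundant. The middle of this order depended on the gene length used: with the longest annotated transcript, TARBP2 was 4th, DROSHA 5th, DICER1 6th and AGO4 7th, while the 3 highest and the 3 lowest members kept their ranks.

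With siALDOA, AGO2 fell by 19.2% and DICER1 fell by 20.7% relative to siControl on the fitted scale, and the other 8 members did not pass the test. No member was called higher. In these bulk libraries, fewer cells with a transcript and less of it per cell cannot be told apart. The 2 called members are 20% of 10, where 9.66% of all tested genes were called in either direction, 5.29% lower and 4.36% higher. With so few members, this share is a description of 10 genes. The median log2 fold change of the members was -0.048, beside 0.0016 over all tested genes, and 5 members had positive and 5 negative values. In 4 of the 10 members all siALDOA libraries stood on the same side of all siControl libraries, 1 above and 3 below, where this held for 27.7% of all tested genes. Scaling by library totals only, in place of TMM, moved the median log2 fold change of all genes to 0.075, called 896 genes higher and 279 lower in place of 668 and 810, and called no member. AGO2 then had a log2 fold change of -0.23 (adjusted p = 0.0818) and DICER1 of -0.26 (adjusted p = 0.0504), with 3 members at an unadjusted p < 0.05. The TMM factors were 0.989, 1.05 and 1.04 with siALDOA and 0.939, 0.955 and 1.03 with siControl, and ribosomal RNA genes took 13.1%, 7.71% and 8.11% of the counts with siALDOA and 17.4%, 15.3% and 8.15% with siControl, so that siALDOA replicate 1 and siControl replicate 3 each stood apart from their group in both. With the ribosomal RNA genes left out, and with either of these libraries left out, 2 members were called.

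**Figure D1:**
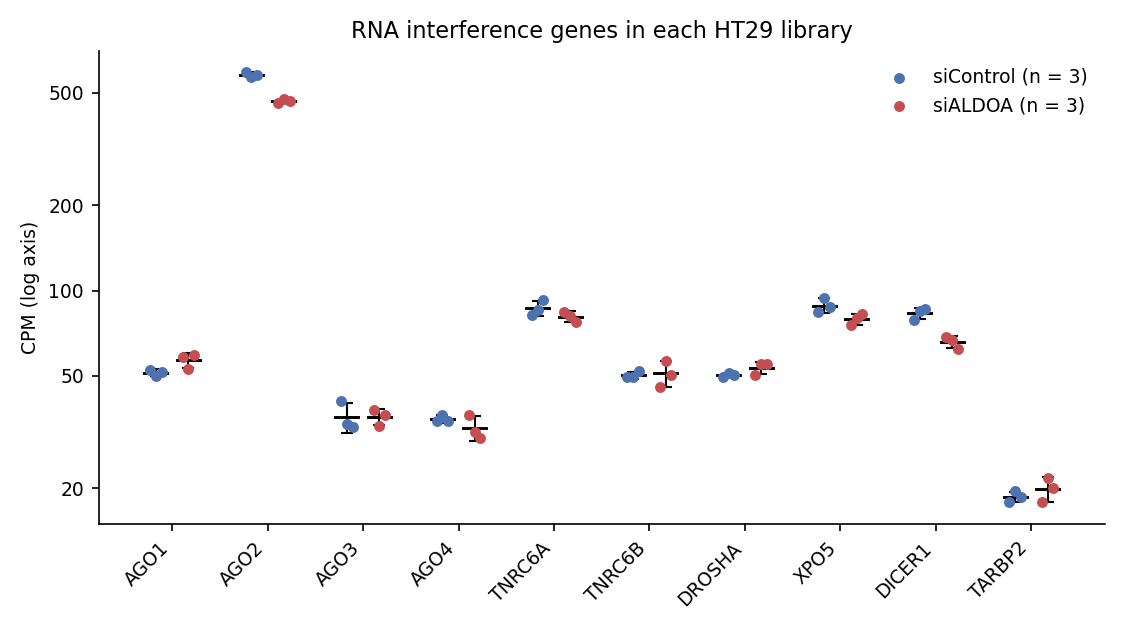
Level of each of the 10 genes in CPM, on a log axis, with 1 point per library, the mean of each group as a line and the SD as a bar (n = 3), siControl in blue and siALDOA in red. AGO2 and DICER1 sit lower in all 3 siALDOA libraries, the XPO5 points lie lower and the AGO1 points higher without overlap although neither gene passed the test, and the other 6 genes overlap between the groups.

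Among the processing and export genes, DROSHA (chromosome 5, 31400494 to 31532196, minus strand), the RNase III enzyme that cuts primary miRNA transcripts in the nucleus, had 50.3, 54.8 and 54.8 CPM with siALDOA and 49.3, 51.2 and 50.3 CPM with siControl. The groups overlapped, with a log2 fold change of 0.08 (95% interval -0.05 to 0.22, adjusted p = 0.484). XPO5 (chromosome 6, 43522334 to 43576038, minus strand), the export receptor of hairpin precursors, had 75.4, 80.1 and 82.4 CPM with siALDOA and 83.8, 94.2 and 87.5 CPM with siControl. Its siALDOA libraries were all below its siControl libraries, but its log2 fold change of -0.16 (95% interval -0.29 to -0.02) did not pass the test (adjusted p = 0.134 by edgeR).

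DICER1 (ENSG00000100697, chromosome 14, 95086228 to 95158010, minus strand), the cytoplasmic RNase III enzyme that makes miRNA duplexes, had 68.8, 66.8 and 62.2 CPM with siALDOA and 79.0, 84.4 and 85.9 CPM with siControl, from 1766 to 2832 counts per library. The highest siALDOA library stood below the lowest siControl library. The log2 fold change was -0.33 (standard error 0.064, 95% interval -0.47 to -0.20, adjusted p = 0.00177 by edgeR). It kept an adjusted p of 0.0192 or less whichever library was left out. TARBP2 (chromosome 12, 53500921 to 53506431, plus strand), the double-stranded RNA-binding partner of DICER1, had 17.9, 21.8 and 20.1 CPM with siALDOA and 17.9, 19.5 and 18.6 CPM with siControl. Its log2 fold change of 0.10 had a 95% interval of -0.11 to 0.30 (adjusted p = 0.606), so a change of the size seen in DICER1 lies outside this interval in the lower direction.

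Among the Argonautes, AGO2 (ENSG00000123908, chromosome 8, 140520156 to 140635633, minus strand) had 461, 477 and 467 CPM with siALDOA and 591, 567 and 580 CPM with siControl, from 12830 to 19120 counts per library. The gap between the groups was wider than the range within either of them, and the siControl mean was 580 CPM ± 11.9 (SD, n = 3). The log2 fold change was -0.31 (standard error 0.054, 95% interval -0.42 to -0.20, adjusted p = 7.04e-04 by edgeR). The highest adjusted p with a library left out was 0.00807.

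AGO1, AGO3 and AGO4, the Argonautes that silence through GW182 proteins without the strong cutting activity of AGO2, lie in tandem on the plus strand of chromosome 1. AGO4 (35808016 to 35857890) is followed after 11918 bases by AGO1 (35869808 to 35930532) and, 186 bases on, by AGO3 (35930718 to 36072500). AGO1 had 58.4, 52.8 and 59.3 CPM with siALDOA and 52.5, 49.8 and 51.7 CPM with siControl, so the siALDOA libraries were above the siControl libraries by a small margin. Its log2 fold change of 0.15 (95% interval 0.01 to 0.29) had an adjusted p of 0.192. AGO3 had 37.9, 33.2 and 36.3 CPM with siALDOA and 40.7, 33.7 and 32.8 CPM with siControl. Its log2 fold change was 0.00033, with a 95% interval of -0.18 to 0.18 (adjusted p = 0.998). AGO4 had 36.4, 31.5 and 30.2 CPM with siALDOA and 34.5, 36.3 and 34.7 CPM with siControl, and its groups overlapped (log2 fold change -0.10, 95% interval -0.27 to 0.07, adjusted p = 0.481). How reads that match several Argonaute paralogs were counted is not stated in the sources used here.

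TNRC6A (chromosome 16, 24610209 to 24827632, plus strand) and TNRC6B (chromosome 22, 40044817 to 40335808, plus strand), the scaffolds that recruit deadenylases to Argonaute, did not pass the test. TNRC6A had 84.4, 81.1 and 77.5 CPM with siALDOA and 81.8, 85.7 and 92.4 CPM with siControl (log2 fold change -0.10, 95% interval -0.23 to 0.04, adjusted p = 0.394). TNRC6B had 45.8, 56.5 and 50.5 CPM with siALDOA and 49.3, 49.6 and 51.9 CPM with siControl (log2 fold change 0.02, 95% interval -0.14 to 0.18, adjusted p = 0.909). For TNRC6B the lowest and the highest library were both siALDOA libraries. limma-voom, DESeq2 and edgeR's likelihood ratio test also called neither scaffold, and neither reached an unadjusted p of 0.05 by any of these tools.

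**Figure D2:**
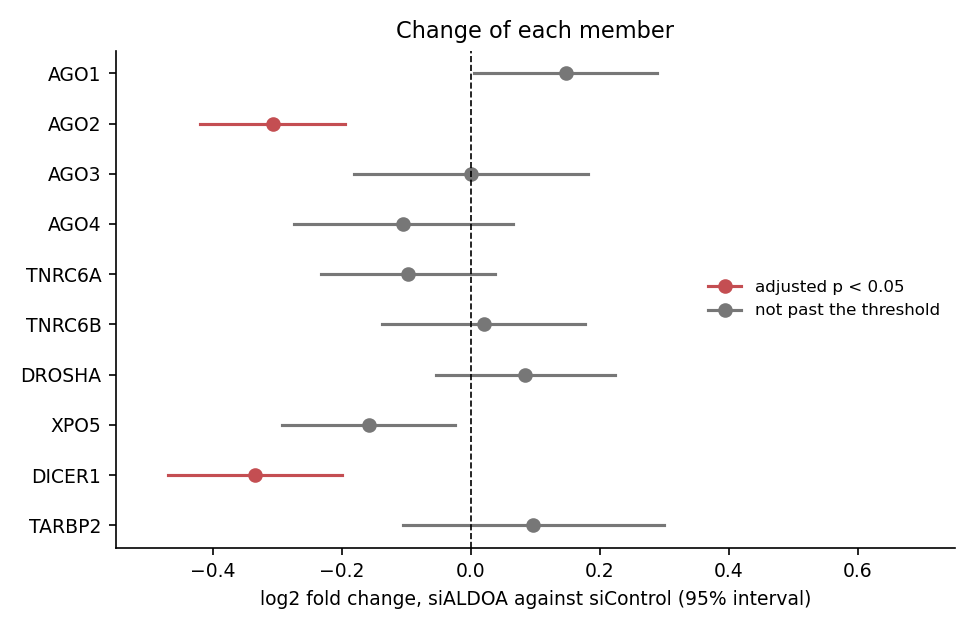
Log2 fold change of siALDOA against siControl for the 10 genes, with the 95% interval from the edgeR fit as a bar and 3 libraries per group. The intervals of AGO2 (-0.42 to -0.20) and DICER1 (-0.47 to -0.20) lie below 0 and are drawn in red as the genes past the adjusted threshold, and those of XPO5 and AGO1 clear 0 narrowly in opposite directions.

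Shares within a library do not depend on how libraries are scaled to each other. AGO2 made up 72.8%, 75.9% and 74.7% of the summed Argonaute transcript level per kb with siALDOA and 78.3%, 78.1% and 78.7% with siControl. The mean share was 74.4% ± 1.53 (SD, n = 3) against 78.4% ± 0.301 (SD, n = 3), a difference of -3.94 percentage points. The groups did not overlap, and the exact two-sided permutation test gave p = 0.1, the smallest value that 3 against 3 libraries allow. AGO1 took 10.2% of the Argonaute level with siALDOA and 7.83% with siControl, AGO4 11.1% and 10.2%, and AGO3 4.26% and 3.62%. The summed level itself was 39.9, 39.7 and 39.5 CPM per kb with siALDOA and 47.6, 45.8 and 46.5 CPM per kb with siControl. AGO2 alone stood at 29.6 CPM per kb with siALDOA and 36.6 CPM per kb with siControl.

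DICER1 and DROSHA, the RNase III enzymes of the pathway, were compared in the same way. DICER1 made up 32.4%, 30.0% and 28.5% of their joint level per kb with siALDOA and 36.0%, 36.7% and 37.5% with siControl. The difference was -6.42 percentage points without overlap (exact permutation p = 0.1, the smallest possible). TNRC6B made up 29.0% ± 2.63 (SD, n = 3) of the joint level of TNRC6A and TNRC6B with siALDOA and 27.4% ± 0.707 (SD, n = 3) with siControl, a difference of 1.59 percentage points within the spread of the libraries (exact permutation p = 0.4). The shares use the same counts as the tests above and are not a second line of evidence.

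**Figure D3:**
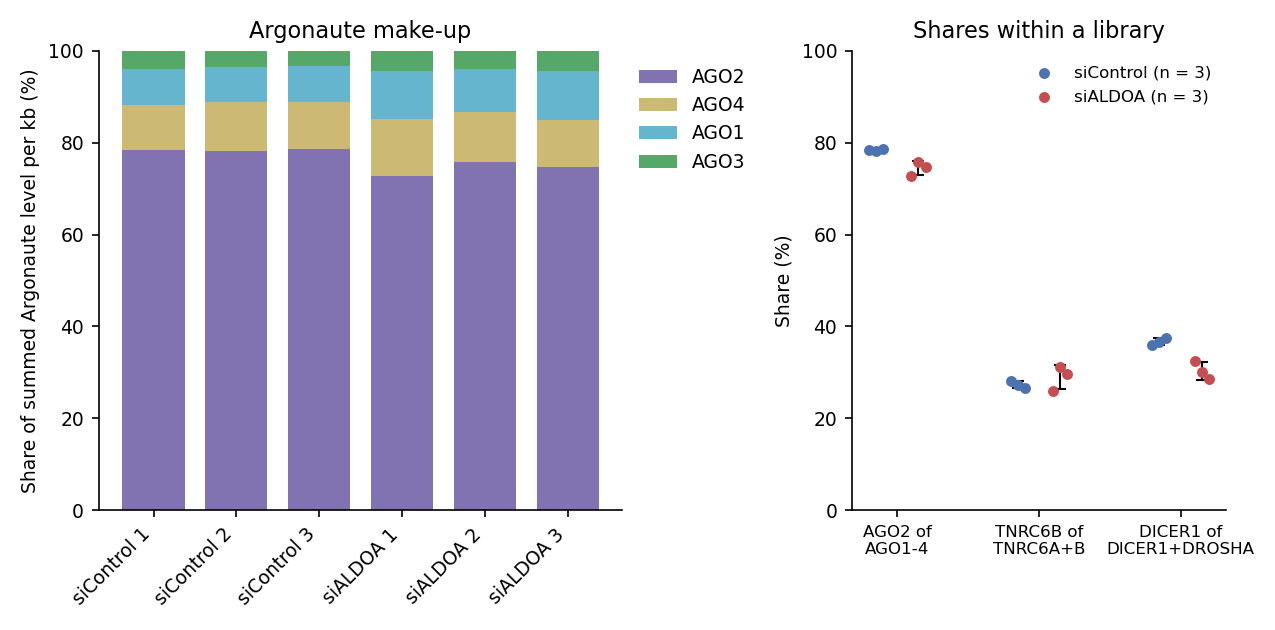
Left, stacked shares in percent of the 4 Argonautes in their summed level per kb of exon in each library. Right, shares in percent of AGO2 in the Argonaute level, of TNRC6B in the level of TNRC6A and TNRC6B, and of DICER1 in the level of DICER1 and DROSHA, with 1 point per library and the SD around the mean as a bar (n = 3). The AGO2 and DICER1 shares of the 3 siALDOA libraries lie below those of the 3 siControl libraries, and the TNRC6B shares overlap.

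The partners of these genes were read from a list of 63 other genes of the pathway, of which LIN28B, TRIM71 and DCP1B were listed at 0 in every library and 60 were tested. Of the 60, 4 were called higher, 3 were called lower and 53 did not pass, a share of calls close to the 9.66% of all genes, and the median log2 fold change was 0.012. With library totals only, 5 were called higher and 0 lower. The 7 calls were spread over 4 of 7 roles.

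None of the 7 genes of the nuclear processing step was called, and none of them reached an unadjusted p of 0.05 with edgeR, limma-voom or DESeq2. DGCR8, the RNA-binding partner of DROSHA, had 90.2 to 99.4 CPM with siALDOA and 92.2 to 94.9 CPM with siControl (log2 fold change 0.02, adjusted p = 0.904). Of 6 tested genes that assist DICER1 or tail and degrade precursors, none was called by edgeR, limma-voom or DESeq2, and 1 had an unadjusted p < 0.05. PRKRA, the other double-stranded RNA-binding partner of DICER1, had 17.9, 18.9 and 18.3 CPM with siALDOA and 19.1, 20.6 and 20.5 CPM with siControl. Its siALDOA libraries were lower without overlap, with a log2 fold change of -0.13 that did not pass (adjusted p = 0.427). The 6 chaperones that help load Argonaute also gave no call with any of these tools, with 1 at an unadjusted p < 0.05 in edgeR.

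Of 11 tested Argonaute and GW182 partners, 2 were higher and 1 was lower, where 4.36% and 5.29% of all tested genes were. ANKRD52, a subunit of the phosphatase complex that dephosphorylates AGO2, had 90.5, 99.4 and 96.8 CPM with siALDOA and 78.0, 73.0 and 77.1 CPM with siControl (log2 fold change 0.33, standard error 0.062, adjusted p = 0.00142). It passed the threshold under each of 17 alternatives. FMR1, an RNA-binding protein found with Argonaute, had 82.1, 79.6 and 82.3 CPM with siALDOA and 69.6, 72.7 and 70.7 CPM with siControl (log2 fold change 0.20, adjusted p = 0.0435), and lost the call under 7 of 17 alternatives. IPO8, an import receptor known to bind Argonaute, had 80.3, 77.7 and 74.1 CPM with siALDOA and 96.9, 94.8 and 92.8 CPM with siControl (log2 fold change -0.29, standard error 0.060, adjusted p = 0.00302). MOV10, an RNA helicase that binds Argonaute, had 109, 126 and 117 CPM with siALDOA and 102, 97.4 and 107 CPM with siControl. It did not pass (log2 fold change 0.20, adjusted p = 0.0599), and it did under 6 of 17 alternatives. TNRC6C, the third GW182 scaffold, had a log2 fold change of 0.15 (adjusted p = 0.274) with overlapping groups.

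Downstream of the scaffolds, 2 of 13 deadenylation genes were lower and none higher, where 5.29% of all tested genes were lower. With library totals only, which moved all genes upward, neither of them was called and 1 other gene of the role was called higher. CNOT6L, a catalytic deadenylase subunit of the CCR4-NOT complex, had 36.8, 35.7 and 31.8 CPM with siALDOA and 43.5, 41.7 and 42.5 CPM with siControl (log2 fold change -0.29, adjusted p = 0.0149). CNOT9, the subunit of this complex that binds GW182, had 58.4, 61.2 and 65.7 CPM with siALDOA and 69.4, 73.9 and 72.4 CPM with siControl (log2 fold change -0.22, adjusted p = 0.0385). With library totals only, the calls of IPO8 (adjusted p = 0.0904), CNOT6L (adjusted p = 0.142) and CNOT9 (adjusted p = 0.350) were lost. CNOT6L also lost its call without siALDOA replicate 3 (adjusted p = 0.0848) or siControl replicate 3 (adjusted p = 0.0611). CNOT9 lost it without any of 4 libraries, siALDOA replicates 1 and 2 and siControl replicates 2 and 3 (adjusted p = 0.0860 to 0.153). Of 11 tested decapping and decay genes, XRN1, the cytoplasmic 5′ to 3′ exonuclease, was the 1 called, a share near the 9.66% of all tested genes. It had 52.3, 54.1 and 51.2 CPM with siALDOA and 46.8, 46.2 and 42.9 CPM with siControl (log2 fold change 0.21). Its adjusted p of 0.049997 lay at the threshold, and it lost the call under 9 of 17 alternatives.

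PNPT1 had the strongest change of the list and was the 1 called among 6 small RNA nucleases, where 4.36% of all tested genes were higher. It encodes the polynucleotide phosphorylase of mitochondria, and its gene is known to be induced by interferon. It had 77.1, 103 and 94.2 CPM with siALDOA and 51.8, 55.8 and 55.4 CPM with siControl (log2 fold change 0.75, standard error 0.083, adjusted p = 2.85e-06), and it passed under each of the 17 alternatives. The interferon-response list, given above, was higher in the same libraries.

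**Figure D4:**
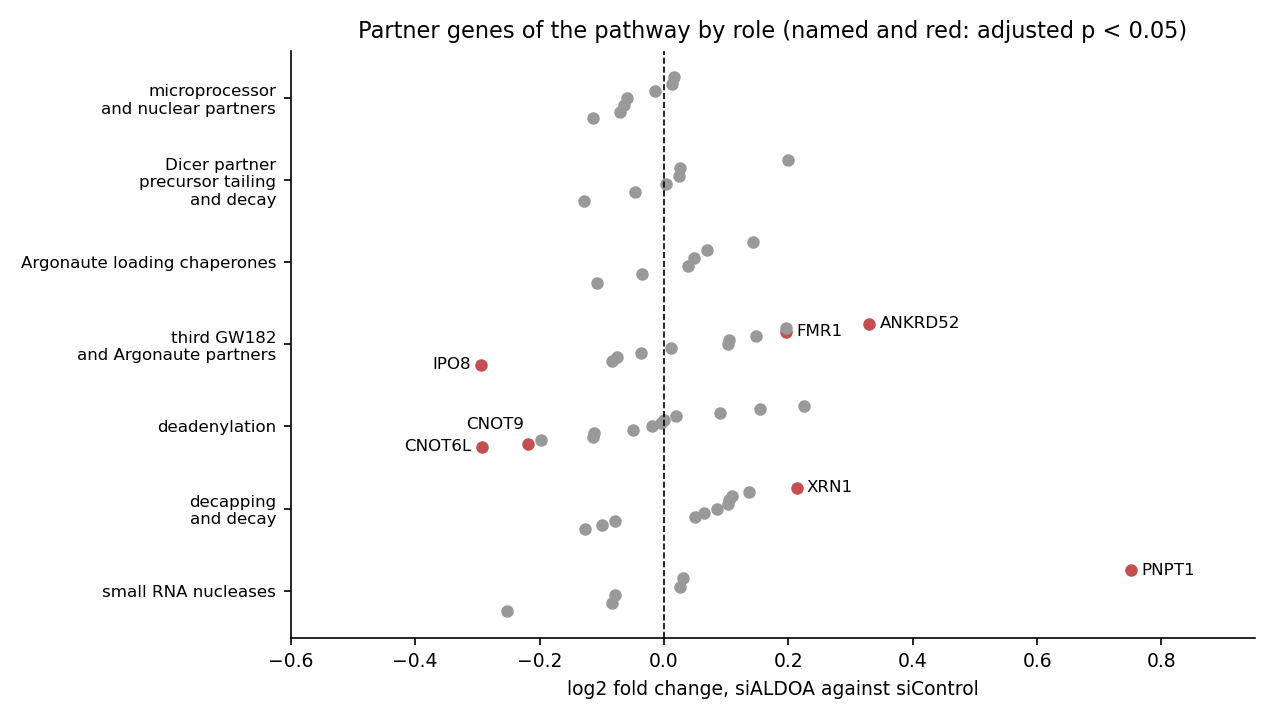
Log2 fold change of siALDOA against siControl for the 60 tested partner genes, 1 point per gene, in rows by role, with genes past the adjusted threshold in red and named. Most points lie near 0, PNPT1 stands at 0.75, and IPO8 and CNOT6L lie lowest at -0.29.

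The long transcripts that carry miRNA hairpins were looked at as substrates of the machinery. Of 20 listed host transcripts, 19 had a row and 13 were tested. None was called by edgeR's quasi-likelihood test, limma-voom or DESeq2, edgeR's likelihood ratio test called 1, and 1 had an unadjusted p < 0.05. That transcript, MIR4458HG, was chosen after its values were seen: it had 8.77, 8.19 and 7.25 CPM with siALDOA and 9.14, 10.5 and 12.3 CPM with siControl (log2 fold change -0.40, adjusted p = 0.0719). MIR17HG, which holds the miR-17 hairpin printed above, had 9.41, 10.3 and 7.43 CPM with siALDOA and 8.88, 10.9 and 9.20 CPM with siControl (adjusted p = 0.737). MIR31HG and MIR22HG, the host transcripts of miR-31 and miR-22, had adjusted p of 0.630 and 0.387. The hosts named with a printed miRNA serve as examples and were not picked by a test. Of the germline relatives of the Argonautes, PIWIL3 was listed at 0, PIWIL1 had 0 to 7 counts per library and PIWIL2 had 0.14 to 0.76 CPM. PIWIL4 was detected at 6.19 to 9.80 CPM, from 193 to 323 counts per library. PIWIL2 and PIWIL4, the 2 that were tested, were not called by edgeR, limma-voom or DESeq2, and neither had an unadjusted p < 0.05 in these tools, while 1 of them did in edgeR's likelihood ratio test. The siALDOA libraries of PIWIL2 all lay below its siControl libraries (log2 fold change -1.10, adjusted p = 0.225 by edgeR), on 4 to 25 counts per library.

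For each member, the tested genes that overlap it and the nearest tested gene on each side were taken at any distance, the farthest 6588946 bases away. Besides the members these were 18 genes, of which 2 were called lower, where 5.29% of all tested genes were. The 1 called higher, where 4.36% of all tested genes were, is DICER1-AS1, and its call is not read as a result. The rule for these neighbours, and DICER1-AS1, CHRAC1 and PTK2 as the ones described, were chosen after values were seen. DICER1 is overlapped by DICER1-AS1 (ENSG00000235706, chromosome 14, 95157645 to 95181475, plus strand), a long non-coding RNA antisense to the start of DICER1. It had 24, 21 and 12 counts with siALDOA and 3, 1 and 2 counts with siControl. All 3 siALDOA libraries had more counts than any siControl library, 57 in sum against 6. The gene passed the low-count filter through its siALDOA libraries and was picked for its values, so no test or interval is given for it. Its level stayed low at 0.661 CPM with siALDOA and 0.0632 CPM with siControl. The annotated exons of the pair share 80 bases (95157931 to 95158010), and the strand setting of the counting is not stated, so reads in that stretch cannot be told apart. DICER1 itself moved in the opposite direction, and a link between the 2 transcripts was not tested.

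The region upstream of DICER1 is printed because DICER1-AS1 begins within it and is read in the opposite direction. It is the promoter of DICER1 from RefSeq (GRCh38.p14, chr14:95157530-95157779, minus strand), 250 bases that end just before the RefSeq start of DICER1 at 95157529. The GENCODE gene reaches further, to 95158010, through a transcript with a separate first exon. Capitals mark the 115 bases between the RefSeq start and the annotated start of DICER1-AS1 at 95157645, and the lower-case bases lie within the annotated DICER1-AS1 gene.
DICER1 promoter: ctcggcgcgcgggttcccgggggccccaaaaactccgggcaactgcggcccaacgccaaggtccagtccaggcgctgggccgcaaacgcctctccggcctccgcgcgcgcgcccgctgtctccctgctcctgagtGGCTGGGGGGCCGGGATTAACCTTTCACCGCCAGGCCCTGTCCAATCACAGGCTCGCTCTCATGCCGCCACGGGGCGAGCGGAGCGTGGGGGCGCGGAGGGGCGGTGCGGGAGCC
The stretch is 74.0% G and C. The letters CCAAT occur once in the capitals.

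RefSeq promoters of 300 bases, 250 before and 50 after the start, were found for 9 of the 10 members, and none for AGO2. The letters CCAAT, searched on both strands, occurred in 6 of the 9, namely AGO1, DROSHA, TARBP2, DICER1, TNRC6A and TNRC6B, and in 35.7% of 27305 promoters. A match is one of letters within the window.

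AGO2 is flanked by 2 genes that were also lower. CHRAC1, a histone-fold subunit of a chromatin remodelling complex, lies 3002 bases away at lower coordinates (140511311 to 140517154, plus strand) and had 138, 148 and 149 CPM with siALDOA and 174, 171 and 183 CPM with siControl. Its log2 fold change was -0.28 (standard error 0.058, adjusted p = 0.00350). PTK2, which encodes focal adhesion kinase, lies 22267 bases away at higher coordinates (140657900 to 141002216, minus strand) and had 257, 244 and 241 CPM with siALDOA and 354, 331 and 335 CPM with siControl. Its log2 fold change was -0.46 (standard error 0.056, adjusted p = 9.56e-06). CHRAC1, like AGO2, lost its call with library totals only (adjusted p = 0.139), and PTK2 passed under each of the 17 alternatives. Apart from DICER1-AS1, the other neighbours were not called.

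**Figure D5:**
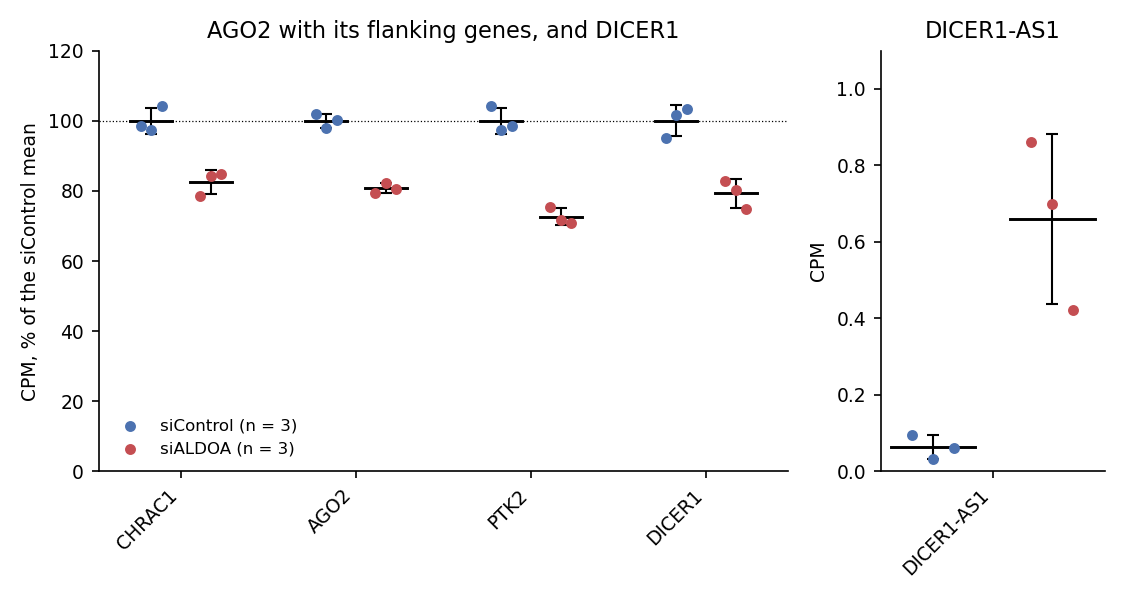
Left, CPM of CHRAC1, AGO2, PTK2 and DICER1 as a percent of the siControl mean of the same gene, and right, CPM of DICER1-AS1, with 1 point per library, a line at the mean of each group and the SD as a bar (n = 3). AGO2, both flanking genes and DICER1 are lower in all 3 siALDOA libraries, and DICER1-AS1 is higher on a scale below 1 CPM.

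The genes whose log2 CPM followed AGO2 most closely over the 6 libraries were FAM102B (Pearson r = 0.998), SFPQ (r = 0.996) and SLC38A1 (r = 0.994). Those that followed DICER1 were ZDHHC23 (r = 0.999), FAM47E (r = 0.997) and GDAP2 (r = 0.997). All 6 were lower in each siALDOA library than in any siControl library, FAM47E without passing the test (adjusted p = 0.420). These values describe 6 libraries in 2 groups that share depth and scaling, and they are the highest of the 15307 genes searched.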

How the data were processed

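RNA-Seq was made from HT29 cells 48 h after transfection with siALDOA or siControl, with 3 libraries per group as given by the labels. Alignment by the authors used TopHat2 on hg38, and gfold gave the raw counts per gene symbol that were deposited, 1 file per library with no normalization. The sources used here do not give the annotation, the strand setting or the treatment of reads that match several places.

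Counts were tested on all genes in R 4.3.3 with edgeR 4.0.16 (filterByExpr on the groups, TMM, quasi-likelihood F-test) and Benjamini-Hochberg adjustment, with calls at an adjusted p < 0.05 and no covariate. CPM used the TMM factors, and log2 CPM a prior count of 2. Standard errors and 95% intervals came from the same fit. Totals of 27277538 to 33237914 counts put about 30 counts behind 1 CPM. The script was run on simulated counts with known changes, and how many of them it recovered is not reported here. Shares were taken per kb of merged exons (GENCODE 44, hg38) and compared by exact two-sided permutation tests with scipy 1.17.1 in python 3.11.15. Sequences were read from RefSeq tables. Figures were drawn with matplotlib 3.10.9.

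The members, the lists of partners, host transcripts, markers and interferon-response genes, and the tests were chosen with earlier results of these data known, so no list serves as independent evidence. The text names the members, ALDOA, DGCR8, PRKRA, TNRC6C and MOV10, in each role up to 4 called partners by smallest p, called host transcripts, and the 3 genes most correlated with AGO2 and with DICER1. Genes outside this rule are said to have been chosen after their values were seen, serve as examples of hosts, or are markers, germline relatives and neighbours.

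The alternatives were limma-voom (limma 3.58.1), DESeq2 1.42.0, edgeR's likelihood ratio test, library totals only, upper quartile, DESeq2 size factors in edgeR, no filter, at least 10 counts in every library, ribosomal RNA genes left out, thinning to the smallest total, a replicate block, each library left out, an unadjusted P < 0.01, and other lengths for shares. DICER1-AS1, CHRAC1 and PTK2 were added to them after the data were seen.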

Additional observations from a re-analysis of the deposited data

How the results depend on the processing

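AGO2 and DICER1 were lower and past the threshold under 16 of 17 alternatives, with log2 fold changes of -0.32 to -0.23 and -0.37 to -0.26. With library totals only, 0 members were called. Each library left out in turn gave 2 called members throughout, and 834 to 1434 genes, 3 to 5 partner genes and 0 to 1 host transcripts, beside 1478, 7 and 0 in the full fit. The lowest gene counts were 849 without siControl replicate 2 and 834 without siControl replicate 3, and partner calls numbered 4 when siALDOA replicate 2 or siControl replicate 2 was left out and 3 when siControl replicate 3 was. The likelihood ratio test, no filter on low counts and leaving out siControl replicate 1 each called 1 host transcript. At an unadjusted P < 0.01, 1906 genes passed. The differences in share kept their direction, at -4.65 to -3.13 points for AGO2, 0.502 to 3.06 for TNRC6B and -7.49 to -5.52 for DICER1 with a library left out.

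Genes with values near 0 changed sign. The log2 fold change of AGO3 was -0.0036 without the filter and -1.0e-06 without ribosomal RNA genes. With a library left out it ran from -0.058 to 0.10 and was negative without siALDOA replicate 1 (-0.043) or 3 (-0.011) and without siControl replicate 2 (-0.042) or 3. That of TNRC6B ran from -0.063 (without siALDOA replicate 2) to 0.090, and that of DGCR8 from -0.023 (without siALDOA replicate 1) to 0.047.

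With the replicate number as a block, 2 members, 9 partners and 2162 genes were called. Deviations of same-numbered libraries correlated at 0.026 to 0.035, against -0.046 to 0.022 for other numbers, and all 6 libraries correlated best with their own number. This is a hint from the data, and the samples share only a number. DICER1-AS1 was not testable with at least 10 counts in every library. Depth limits DICER1-AS1, PIWIL1 and PIWIL2, which rest on few counts. The p-values measure the spread of 3 libraries of 1 cell line.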
